A study of Mesocricetus auratus with 38 samples.

Results

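The genes described here are 38 insulin, AMPK and mTOR signalling genes, taken by name from these pathways, with earlier results of these data known but with no value used as a criterion. Of these, 34 have a row in the deposited tables, which hold 14631 gene symbols, and all 34 passed the filter on low counts, as did 9099 genes in all. Insr, Cbl, Pik3r2 and Rps6kb1 were not analysed here. Liver RNA came from male Golden Syrian hamsters aged 22 weeks by the labels, which were fasted for 6 h before sacrifice. Fat supplied 11% of the energy in the food of the control group (labelled Chow diet, 9 libraries), which was kept on it for 12 weeks. In the HFD group (labelled HFD, 10 libraries) fat supplied 23% of the energy and cholesterol was added at 1 g per kg of food. This diet was fed for 12 weeks, with 8 weeks before treatment and a placebo over the last 4 weeks. The Dose I group (labelled HFD + MI_D1, 9 libraries) ate the HFD and received combined metabolic activators (CMA) in those 4 weeks, with 200 mg/kg each of L-carnitine, N-acetylcysteine and nicotinamide riboside and 400 mg/kg betaine. The Dose II group (labelled HFD + MI_D2, 10 libraries), on the same diet and schedule, received 400 mg/kg of each and 800 mg/kg betaine. The labels name no animals, so each library was taken as 1 liver, and p-values measure the spread between libraries.

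Insulin acts on hepatocytes through its receptor, which phosphorylates the adaptor proteins IRS1 and IRS2. These recruit PI3-kinase, whose lipid product brings PDK1 and AKT to the membrane, and AKT then excludes FOXO factors from the nucleus and relieves the TSC block on Rheb and mTOR. AMPK is a kinase of 3 kinds of subunit that senses low energy charge, is switched on by LKB1, and restrains mTOR. All of these steps are run by phosphorylation and binding, which RNA levels do not measure.

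Total estimated counts ran from 4.08e+06 to 1.04e+07 per library, and the members' median estimated counts ran from 15 (Braf) to 919.5 (Prkab1). Levels are given as CPM, counts scaled to library size with TMM factors, for comparing groups, and as TPM, which also divides by transcript length, for comparing genes. Control library C105 stood apart (names join the label number to C for control, H for HFD, DI for Dose I and DII for Dose II) and was left out of the main test, because the study states that it dropped 1 control library, so 8 controls were compared. In this library 20 of the 34 members lay below the range of the other 8 controls and 5 lay above it, against 35.04% below and 31.9% above among all tested genes. A gene was counted as changed at a Benjamini-Hochberg adjusted p under 0.1 over all tested genes (edgeR's quasi-likelihood test), the threshold of the study. The 7 measured hepatocyte markers summed to 201692 to 237664 CPM in the 8 controls and to 132058 to 194796 CPM in the HFD group. Of these 7 genes 2 were lower in the HFD group, 1 was higher and 4 were not called, with a median log2 fold change of -0.16. Among all tested genes 18.1% were lower and 18.1% higher in this comparison. The adipocyte genes Adipoq and Lep were at 0 in every library. In bulk tissue fewer cells of a type and less RNA per cell cannot be told apart.

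In control livers the most abundant members per length were subunits of AMPK and the kinase AKT1. Median TPM was 69.96 for Prkab1, 52.7 for Prkag1, 37.98 for Akt1 and 24.5 for Akt2. The 2 adaptor genes of the insulin receptor were near the low end, at 2.04 TPM for Irs1 and 2.14 TPM for Irs2, close to Pik3cb (2.03), Braf (2.17) and Prkab2 (2.22). Rheb was listed at 262 TPM, but its transcript length in the tables is 0.08 of that of a typical gene, and its CPM of 43.3 is in the range of the other members.

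The first comparison asked what the diet did to these genes, and in HFD livers 14 members were lower than in controls, 2 were higher and 18 were not called. Among all tested genes 36.2% were called, with 18.1% lower and 18.1% higher. The members' median log2 fold change was -0.17, against 0.01 over all tested genes, and 25 of the 34 were below 0. The genes that fell encode the adaptor IRS1, the PI3-kinase subunits Pik3ca, Pik3cb and Pik3r1, PDK1, the atypical protein kinase C iota, FOXO1, 3 members of the Ras-MAPK branch, the AMPK catalytic subunit alpha 2, and mTOR with both of its partner proteins raptor and rictor. The 2 genes that rose encode AKT1 and LKB1.

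**Figure D1:**
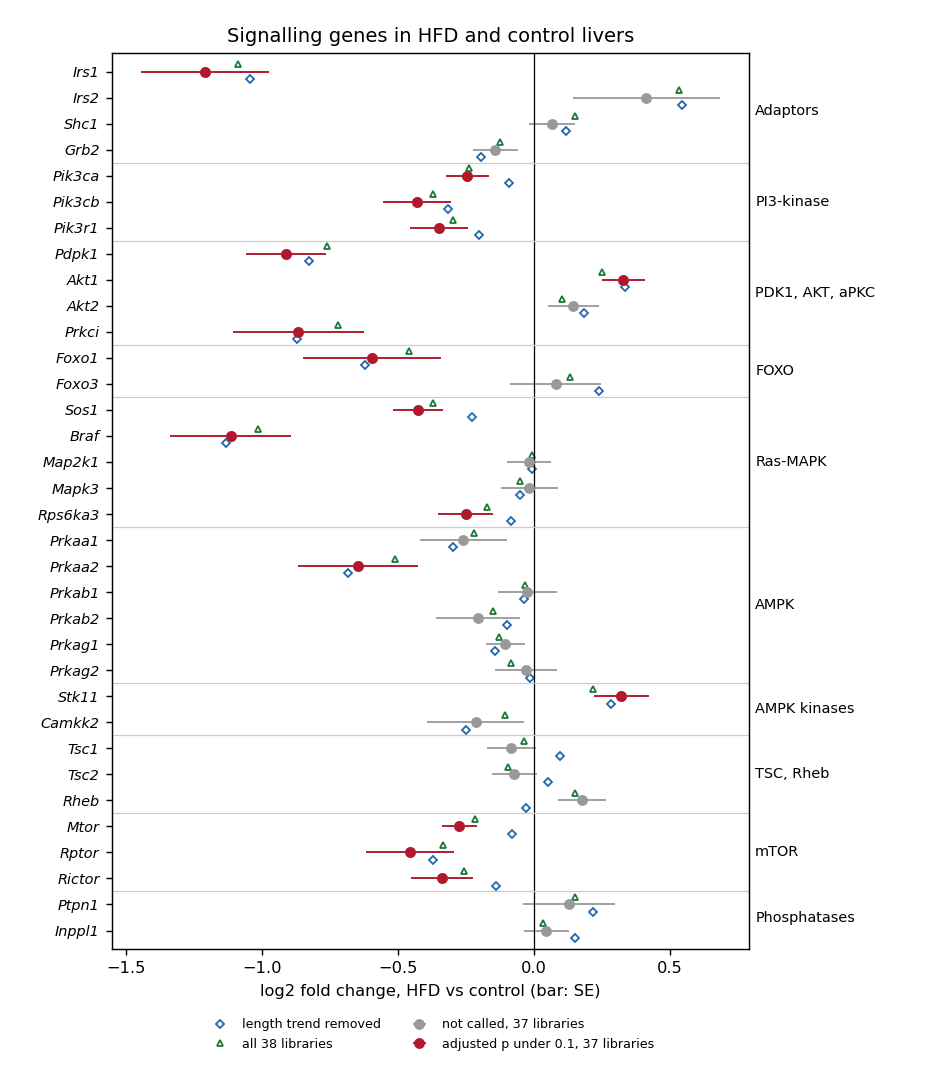
Log2 fold change of each of the 34 signalling genes in HFD against control livers, by role, with bars of 1 SE; red points passed an adjusted p of 0.1 and grey points did not. Open diamonds show the same value with the trend of each library with transcript length removed, and open triangles show it with all 38 libraries. Irs1, Braf, Pdpk1 and Prkci lie furthest to the left, and the diamonds of Mtor, Rictor, Pik3ca and Rps6ka3 lie near 0.

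Irs1 showed the widest fall of all members. Its lowest, median and highest CPM were 9.02, 14.9 and 35.7 in the 8 controls and 3.75, 6.68 and 9.57 in the 10 HFD livers, so the groups met only at the edge of their ranges. The log2 fold change was -1.21 ± 0.24 (SE), with an edgeR adjusted p of 3.02e-04. Control C103 held the highest value, and without it the change was -0.95 with an adjusted p of 0.00185. Irs2, the other main adaptor of the insulin receptor in liver, was not called. Its CPM ran from 6.81 through a median of 12.3 to 19.9 in controls and from 10.7 through 16.7 to 24.5 in the HFD group, and its log2 fold change was 0.41 ± 0.27 (adjusted p = 0.260).

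The balance of the 2 adaptors shifted. Irs1 made up 44.4% to 58.9% of the summed TPM of Irs1 and Irs2 in controls, with a median of 47.98%, and 14.8% to 41.6% in HFD livers, with a median of 24.0%. These ranges do not overlap, and the log2 ratio of Irs1 to Irs2 differed by -1.56 ± 0.22 (SE), with a two-sided exact permutation p of 4.57e-05, which is as low as 10 against 8 livers can give. This was 1 of 9 pairs of related members compared in 3 contrasts, a set chosen after the data were seen, and it was the pair past the threshold after adjustment over the 27 tests (adjusted p = 0.00123). In control C105 both adaptors were low, at 3.41 CPM for Irs1 and 2.62 CPM for Irs2, but the share of Irs1 was 50.95%, inside the range of the other controls, and with all 38 libraries the difference was -1.57. The share had medians of 22.6% in the Dose I group and 22.3% in the Dose II group.

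**Figure D2:**
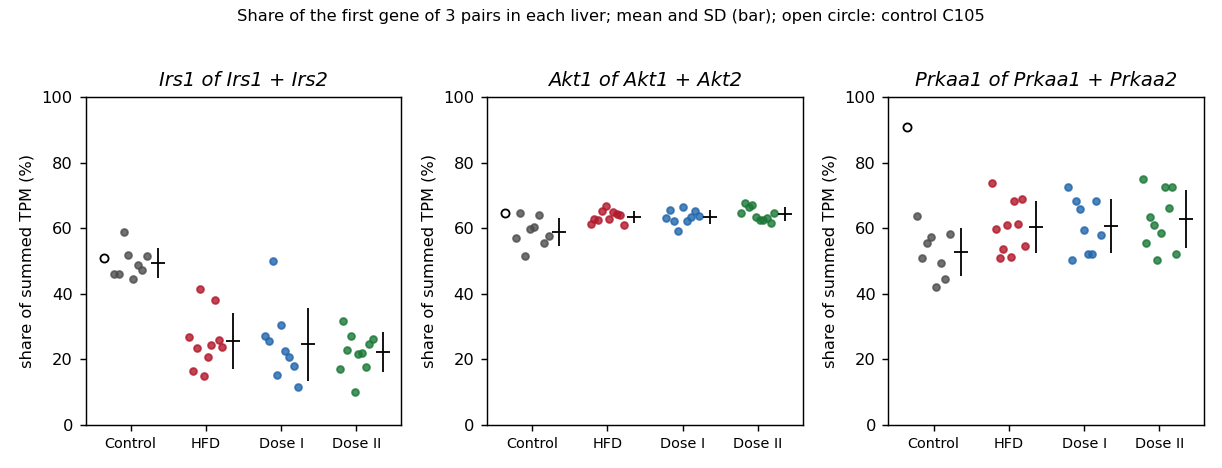
Share of the first gene in the summed TPM (%) of 3 pairs, for each liver by group, with the mean and SD as a black bar and control C105 as an open circle. The Irs1 share is 44.4% to 58.9% in the 8 controls and 14.8% to 41.6% in the HFD group, the Akt1 share differs less, and the Prkaa1 share in control C105 is 90.8%.

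Shc1 and Grb2 were not called in this comparison. Shc1, which links receptors to Ras, had a log2 fold change of 0.07 ± 0.08, and Grb2, which carries SOS1 to the receptor, had -0.14 ± 0.08, with adjusted p of 0.585 and 0.202. The PI3-kinase members Pik3ca, Pik3cb and Pik3r1 were lower, while of 2 further catalytic subunits in the wider list Pik3cg was lower and Pik3cd was not called (0.34 ± 0.16, adjusted p = 0.111). Pik3r1, the main regulatory subunit, had a median of 70.5 CPM in controls (58.8 to 84.1) and 56.3 CPM in the HFD group (41.1 to 67.5). Its log2 fold change was -0.35 ± 0.11 (adjusted p = 0.0134). The catalytic subunit Pik3ca went from a median of 56.1 CPM (44.9 to 59.95) to 47.1 CPM (39.9 to 52.7), and Pik3cb from 10.8 CPM (9.56 to 13.4) to 8.62 CPM (6.45 to 11.5). Their log2 fold changes were -0.24 ± 0.08 and -0.43 ± 0.13, with adjusted p of 0.0178 and 0.0103. The ranges of Pik3ca, Pik3cb and Pik3r1 overlapped between the groups.

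Pdpk1, which encodes the kinase that phosphorylates AKT in its activation loop, separated the groups. Its CPM ran from 15.3 through a median of 17.0 to 20.8 in controls and from 6.38 through 8.63 to 13.8 in the HFD group. It was 1 of 2 members whose ranges did not overlap, both lower, where 0.758% of all tested genes were lower and 1.02% higher without overlap. The log2 fold change was -0.91 ± 0.15 (adjusted p = 3.08e-05), the smallest adjusted p of any member in the edgeR fit. Control C105 lay far outside the other controls for this gene, at 0.524 CPM, and with all 38 libraries the change was -0.76 with an adjusted p of 0.0290.

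Akt1 moved the other way. Its CPM was 68.5, 89.9 and 112.8 at the lowest, median and highest in controls and 94.3, 115.4 and 125.7 in the HFD group, with a log2 fold change of 0.33 ± 0.08 (adjusted p = 0.00233). Akt2, the form that carries most of the insulin response in mouse liver, went from a median of 72.9 CPM (61.9 to 97.03) to 84.9 CPM (67.4 to 103.1), a log2 fold change of 0.15 ± 0.09 that was not called (adjusted p = 0.252). The log2 ratio of Akt1 to Akt2 differed by 0.28 ± 0.10 (exact permutation p = 0.00827, adjusted p = 0.112), so the change of Akt1 was not shown to exceed that of Akt2. Prkci, an atypical protein kinase C below PI3-kinase, fell from a median of 7.58 CPM (4.36 to 8.55) to 3.98 CPM (1.26 to 6.92), with a log2 fold change of -0.87 ± 0.24 (adjusted p = 0.00684). In control C105 Prkci was at 0.262 CPM.

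Foxo1, the factor through which insulin represses glucose production, had a median of 7.37 CPM in controls (4.78 to 10.1) and 4.89 CPM in the HFD group (1.02 to 9.33). The log2 fold change was -0.59 ± 0.25 (adjusted p = 0.0758), and the ranges overlapped widely. The call was lost in 9 of the 18 fits that left out 1 library, and with all 38 libraries the adjusted p was 0.319. Foxo3 had 0.08 ± 0.17 (adjusted p = 0.758), and the ratio of the 2 FOXO genes did not pass after adjustment (difference -0.82 ± 0.31, exact permutation, adjusted p = 0.114).

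In the Ras-MAPK branch, Braf, Sos1 and Rps6ka3 fell and the MEK and ERK kinases were not called. Braf, a kinase that activates MEK, was the second member whose ranges did not overlap, at 3.17, 4.28 and 6.28 CPM in controls and 1.18, 2.15 and 2.85 CPM in the HFD group. Its log2 fold change was -1.12 ± 0.22 (adjusted p = 3.70e-04), on the lowest counts of all members. In control C105 Braf was at 1.31 CPM, inside the range of the HFD group. With all 38 libraries its change was -1.01 (edgeR adjusted p = 0.00554). Sos1, the exchange factor that loads Ras with GTP, was abundant by comparison, with a median of 76.0 CPM in controls (66.7 to 119.2) and 57.9 CPM in the HFD group (49.3 to 71.03). It had a log2 fold change of -0.43 ± 0.09 (adjusted p = 7.87e-04), and of -0.32 (adjusted p = 0.00378) without control C103, which held the highest value. Rps6ka3, a kinase below ERK, had 25.9 CPM (23.9 to 30.6) and 23.5 CPM (18.7 to 27.0) at the medians, a change of -0.25 ± 0.10 (adjusted p = 0.0601) that was lost in 6 of the 18 fits with 1 library left out. Map2k1, which encodes MEK1, and Mapk3, which encodes ERK1, both had -0.02, with SEs of 0.08 and 0.10.

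**Figure D3:**
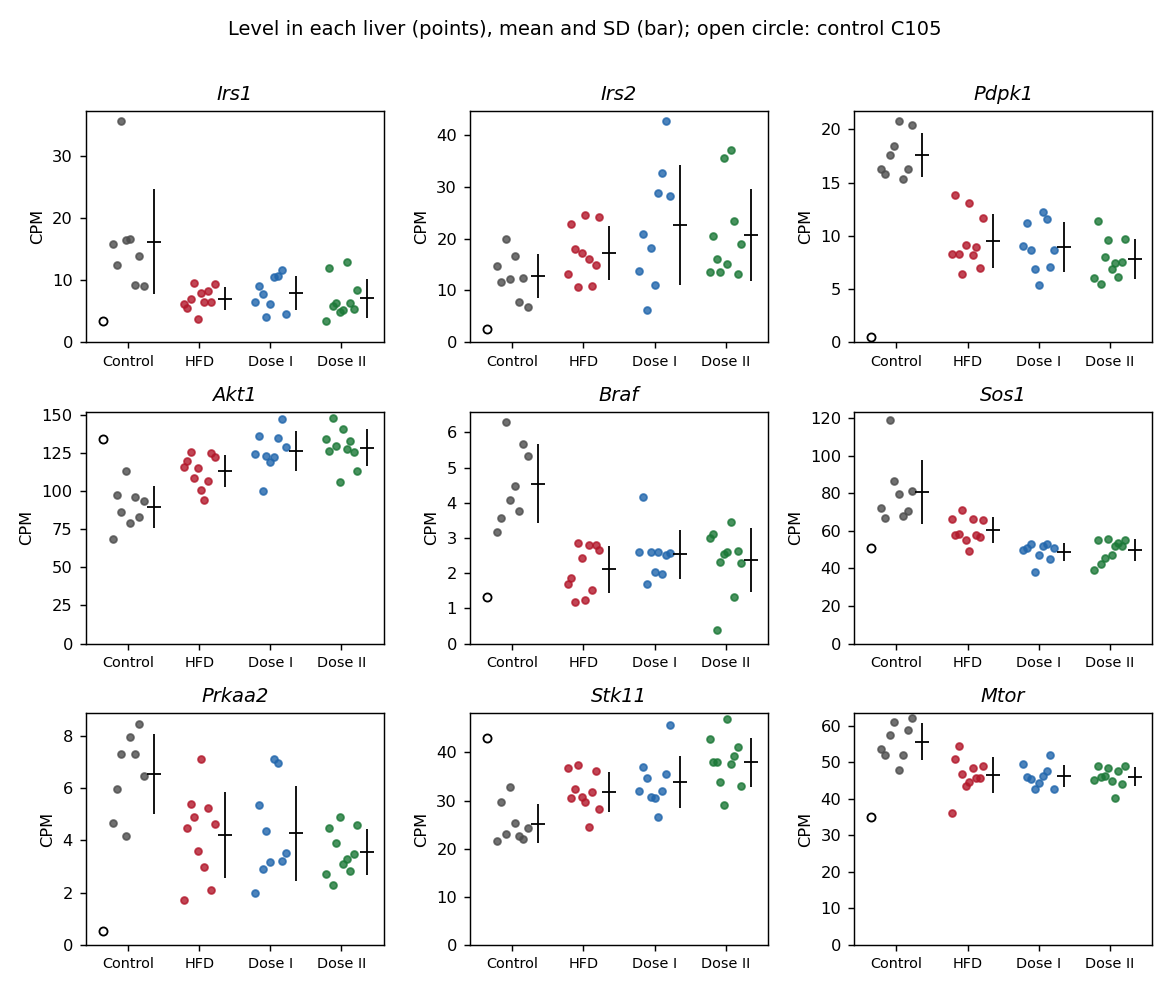
Level in CPM of 9 signalling genes in each liver by group, with the mean and SD as a black bar; the open circle is control C105, which was left out of the test. Pdpk1 and Braf show no overlap between the 8 controls and the 10 HFD livers, Akt1 and Stk11 lie higher in the HFD group, and control C105 lies outside the other controls in all 9 panels.

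Among the 6 AMPK subunit genes that are members 1 changed, and Prkag3, a further subunit in the wider list, was called higher. Prkaa2, the alpha 2 catalytic subunit, had 4.18, 6.87 and 8.46 CPM at the lowest, median and highest in controls and 1.70, 4.54 and 7.10 CPM in the HFD group, with a log2 fold change of -0.65 ± 0.22 (adjusted p = 0.0266). Prkaa1, the alpha 1 subunit, had 5.37, 6.66 and 8.72 CPM against 4.495, 5.38 and 7.93 CPM, and its change of -0.26 ± 0.16 was not called (adjusted p = 0.229). The log2 ratio of the 2 alpha genes differed by 0.46 ± 0.22 and did not pass (exact permutation, adjusted p = 0.286). Prkaa2 was at 0.524 CPM in control C105, and with all 38 libraries its adjusted p was 0.213. The beta and gamma members had log2 fold changes between -0.21 (Prkab2) and -0.02 (Prkab1), none of them called. Prkab1 made up a median of 97.1% of the beta TPM and Prkag1 88.5% of the summed TPM of Prkag1 and Prkag2 in controls.

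Stk11, which encodes LKB1, the kinase that activates AMPK, was 1 of the 2 genes that rose. Its CPM was 21.6, 23.7 and 32.8 in controls and 24.5, 31.3 and 37.4 in the HFD group. Its log2 fold change was 0.32 ± 0.10 (adjusted p = 0.0168). In control C105 it was at 42.96 CPM, above every other control, and with all 38 libraries the call was lost (adjusted p = 0.234). Camkk2, the calcium-driven kinase of AMPK, had -0.21 ± 0.18 (adjusted p = 0.386).

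The TSC genes, whose products restrain Rheb, were not called. Tsc2 had 52.3, 59.04 and 62.9 CPM in controls and 43.3, 56.8 and 65.2 CPM in the HFD group, with a log2 fold change of -0.07 ± 0.08, and Tsc1 had -0.08 ± 0.09. Rheb, the GTPase that switches on mTOR, had 0.18 ± 0.09 (adjusted p = 0.131). Mtor itself fell slightly, from 47.8, 55.5 and 62.1 CPM to 36.2, 46.2 and 54.4 CPM, with a log2 fold change of -0.27 ± 0.06 (adjusted p = 0.00168). Rptor, the scaffold of the nutrient-sensing complex, went from a median of 14.2 CPM (9.81 to 17.9) to 9.75 CPM (6.03 to 16.1), a change of -0.45 ± 0.16 (adjusted p = 0.0336). Rictor, the scaffold of the complex that phosphorylates AKT, went from 25.1 CPM (20.6 to 30.7) to 20.2 CPM (16.6 to 23.2), a change of -0.34 ± 0.11 (adjusted p = 0.0231). With all 38 libraries the calls of Rptor (adjusted p = 0.286) and Rictor (adjusted p = 0.200) were lost. The phosphatases that damp the insulin signal, Ptpn1 and Inppl1, had 0.13 ± 0.17 and 0.05 ± 0.08 and were not called.

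Direction in HFD livers went with transcript length over all genes, and many members are long. Relative transcript length was taken as counts divided by TPM and scaled to the median of each library. The members' median was 1.77, against 1.03 over all tested genes, and 17 of the 34 members were in the longest of 5 equal length classes. In that class 28.7% of all genes were lower in HFD and 6.98% were higher, and 10 of its 17 members were lower and 0 higher. In the shortest class 11.5% of genes were lower and 34.6% higher. For each library, the Spearman correlation across genes of its deviation from the mean with length ran from 0.105 to 0.335 in the 8 controls and from -0.217 to 0.150 in the HFD group. The group means differed by -0.215 (two-sided exact permutation test, p = 1.37e-04). Control C105 had -0.355, and with it the difference was -0.143 (exact permutation p = 0.0654). Across the 34 members the correlation of log2 fold change with length was -0.15, and across all tested genes it was -0.26.

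When the trend with length was removed from each library, 12 members were called, 2 higher and 10 lower, where 31.6% of all tested genes were called. Pik3ca, Pik3r1, Rps6ka3, Mtor and Rictor lost their calls, and Grb2 was called with a log2 fold change of -0.19. The value for Mtor moved from -0.27 to -0.08 and that for Rictor from -0.34 to -0.14. With all 38 libraries and no correction 10 members were called, 1 higher and 9 lower, where 15.6% of all tested genes were called. With both changes together 6 members remained, where 16.1% of all tested genes were called. Those 6 were Irs1, Pdpk1, Prkci, Sos1 and Braf, which were lower, and Akt1, which was higher, and they held in each of these 3 alternatives. With both changes Irs1 had -0.95 (adjusted p = 0.00673), Braf -1.03 (adjusted p = 0.00492) and Pdpk1 -0.69 (adjusted p = 0.0297) in edgeR. The others lay nearer the threshold of 0.1, with Sos1 at -0.24 (adjusted p = 0.0571), Akt1 at 0.24 (adjusted p = 0.0785) and Prkci at -0.73 (adjusted p = 0.0955). For Prkci the edgeR adjusted p was 0.0992 with all 38 libraries and no correction. Of the other 10 calls, those of Pik3cb, Foxo1, Prkaa2, Stk11 and Rptor held when the length trend alone was removed. Foxo1, Rps6ka3, Prkaa2, Stk11, Rptor and Rictor lost theirs with all 38 libraries and no correction. The part of length in these 10 calls was not tested further.

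**Figure D4:**
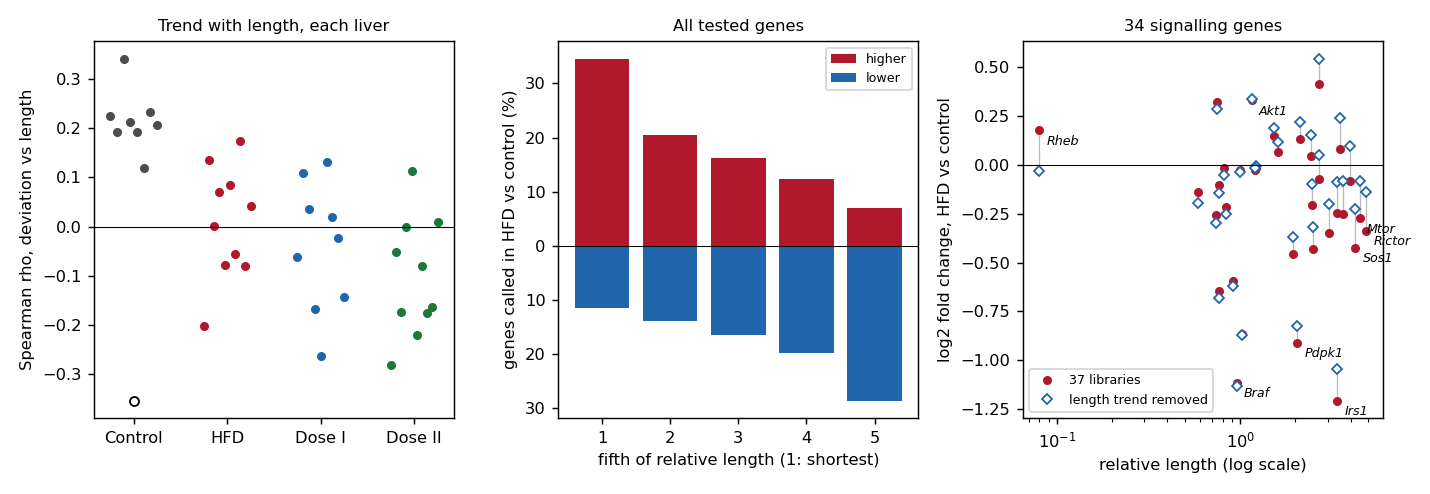
Left, the Spearman correlation across genes of each library's deviation from the mean of all 38 libraries with transcript length, by group, with control C105 as an open circle at -0.355. Middle, the percent of all tested genes called higher or lower in HFD against control in each of 5 length classes, from 34.6% higher in the shortest to 28.7% lower in the longest. Right, the log2 fold change of the 34 members against relative length on a log scale, before and after the trend was removed, where Mtor and Rictor move towards 0 and Irs1, Pdpk1 and Braf stay low.

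The wider pathway lists moved in both directions in HFD livers. Of 32 further insulin signalling genes tested, of 41 listed, 4 were higher and 10 lower, where 18.1% of all tested genes were called in each direction. Rapgef1, an exchange factor for Rap1, had a log2 fold change of -0.62 ± 0.12, the adaptor Crkl -0.57 ± 0.15, the PI3-kinase subunit Pik3cg -1.003 ± 0.29, and Hras 0.32 ± 0.08. Of 20 further AMPK pathway genes, of 24 listed, 5 were higher and 5 lower, and they included Mlycd, which encodes the enzyme that breaks down malonyl-CoA, at 0.88 ± 0.17. The phosphatase gene Ppm1a had -0.45 ± 0.08, Flcn 0.41 ± 0.12 and the AMPK gamma 3 subunit Prkag3 1.31 ± 0.41, the last at a median of 1.68 CPM in HFD livers. Of 30 further mTOR pathway genes, of 37 listed, 7 were higher and 6 lower. Among them Eif4ebp2, a translation repressor that mTOR inactivates, had -0.54 ± 0.09, while Lamtor2 and Rragc, parts of the lysosomal docking site of mTOR, had 0.34 ± 0.08 and 0.37 ± 0.08, and Akt1s1, an inhibitor of mTOR, had 0.46 ± 0.11. With all 38 libraries the counts were 0 higher and 5 lower, 3 and 2, and 2 and 3 for these lists (15.6% of all tested genes called). With the trend with length removed they were 7 and 7, 5 and 4, and 7 and 8 (31.6% called).

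Genes known to be induced or repressed by insulin in liver did not move together. Among the induced genes, Srebf1 was higher in HFD livers (0.39 ± 0.13, adjusted p = 0.0235) and Pnpla3 was lower (-1.20 ± 0.37, adjusted p = 0.0135). Of the 4 measured repressed genes none was called by edgeR, with log2 fold changes of 0.15 ± 0.24 for Pck1, -0.26 ± 0.22 for G6pc, 0.18 ± 0.45 for Igfbp1 and -0.12 ± 0.51 for Pdk4. Of the 10 measured Kupffer cell and macrophage markers 6 were higher in HFD livers, where 18.1% of all tested genes were higher. With all 38 libraries 2 of the 10 were higher, where 6.63% of all tested genes were higher. The summed level of the 10 markers was 195 to 271 CPM in the 8 controls, 286 to 465 CPM in the HFD group and 515 CPM in control C105. The part of cell makeup in the members' changes was not tested.

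The second question was what CMA did on the HFD. At Dose I against HFD no member was called by edgeR, where 0.187% of all tested genes were called. An unadjusted edgeR p under 0.05 was seen for 5 members at Dose I (Grb2, Akt1, Sos1, Rps6ka3 and Ptpn1) and for 6 at Dose II. The share of all tested genes at this cut-off was not counted, so no result is read from these counts. DESeq2 gave an adjusted p to 24 of the 34 members and called 1 of them, Sos1. It called 1.61% of the 4980 genes to which it gave an adjusted p. On log2 TPM, limma called 0 members. Sos1 had a median of 57.9 CPM in the HFD group and 50.8 CPM at Dose I (38.1 to 53.2), a log2 fold change of -0.30 ± 0.09 (edgeR adjusted p = 0.193). Ptpn1 had 0.41 ± 0.16 (adjusted p = 0.411), with the highest liver at 108.6 CPM against a group median of 44.1 CPM.

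At Dose II against HFD 1 member was called, Sos1, which was lower, where 5.63% of all tested genes were called, 2.25% lower and 3.37% higher. Its CPM was 38.95, 51.9 and 55.4 at Dose II and 49.3, 57.9 and 71.03 in the HFD group, so the ranges overlapped, and its log2 fold change was -0.27 ± 0.09 (edgeR adjusted p = 0.0862). The call was lost in 9 of 20 fits with 1 library left out, those without H110, H113, H116, H117 or H119 and without DII129, DII131, DII134 or DII135. It was also lost with the trend with length removed (4.79% of all tested genes called), with all 38 libraries (2.7%), with both (3.0%), with no filter (2.98%) and at an adjusted p under 0.05 (2.53%). Control C105 is in neither group and enters only through the fit shared by all groups. With it the Sos1 change stayed at -0.27 (edgeR adjusted p = 0.172). The call held with only the 2 groups fitted (5.24%) and with at least 10 counts in every library (6.59%). It also held with RLE scaling (5.24%) and with an offset for transcript length in each library (5.01%). Without H110 or H113 the 1 member called was Stk11 instead. Stk11 had a median of 38.1 CPM at Dose II (29.1 to 46.9), a log2 fold change of 0.27 ± 0.09 (adjusted p = 0.102), and was called by DESeq2 (7.14% of all genes it tested), while limma added Grb2 and Rps6ka3 (6.48% and 6.46% at its 2 pseudocounts). Without DII133 the count was 2, with Stk11 added, and without DII132 it was 4, with Grb2, Rps6ka3 and Stk11 added. Akt1 had 0.20 ± 0.07 at Dose II (adjusted p = 0.140).

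The 16 members that differed between HFD and control livers had log2 fold changes between -0.30 and 0.37 at Dose I and between -0.27 and 0.27 at Dose II, both against the same HFD livers. Irs1 had medians of 7.83 CPM at Dose I (4.12 to 11.6) and 6.10 CPM at Dose II (3.46 to 13.0), beside 6.68 CPM in the HFD group. Its log2 fold changes against HFD were 0.18 ± 0.24 and 0.01 ± 0.24, and intervals of 2 SE ran from -0.30 to 0.65 and from -0.46 to 0.48. Pdpk1 had 8.68 CPM (5.39 to 12.3) and 7.51 CPM (5.52 to 11.4), with -0.06 ± 0.15 and -0.26 ± 0.15. Mtor had 46.003 CPM (42.7 to 52.1) and 46.2 CPM (40.2 to 48.9), with -0.00 ± 0.06 and 0.00 ± 0.06. Prkaa2 had 3.497 CPM (1.99 to 7.09) and 3.37 CPM (2.28 to 4.91), with 0.03 ± 0.22 and -0.22 ± 0.22. Foxo1 had 6.22 CPM and 4.70 CPM at the medians, with 0.08 ± 0.25 and -0.18 ± 0.25.

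**Figure D5:**
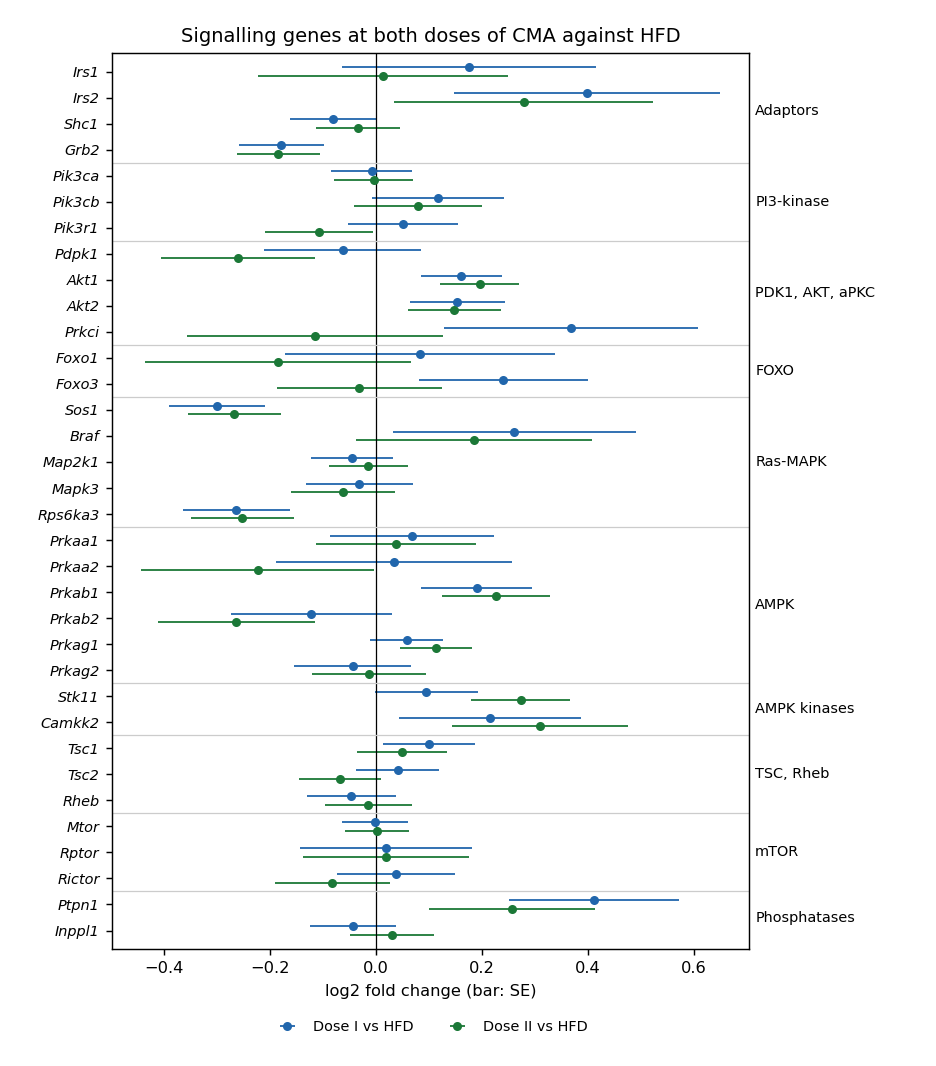
Log2 fold change of each of the 34 signalling genes at Dose I and at Dose II against the same 10 HFD livers, by role, with bars of 1 SE. The Sos1 values of -0.30 and -0.27 have the smallest p of all members in each comparison, and Sos1 at Dose II is the point that passed an adjusted p of 0.1.

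Between Dose II and Dose I edgeR called 0 members and 0.0% of all tested genes, 0 members had an unadjusted p under 0.05, and DESeq2 and limma also called 0. The members' log2 fold changes between the doses ran from -0.48 to 0.18. In the wider lists, Dose II against HFD called 3 genes, where 5.63% of all tested genes were called. With all 38 libraries it called 0, although control C105 is in neither of these groups. Rapgef1 was lower at -0.40 ± 0.11, Grb14, an inhibitor of the insulin receptor, was higher at 0.21 ± 0.07 and lost its call with the trend with length removed, and Eif4ebp1, a translation repressor below mTOR, was higher at 0.51 ± 0.14. Pnpla3 was lower at Dose II by -1.49 ± 0.36 (adjusted p = 0.0158), while Srebf1 was not called, and none of the 4 insulin-repressed genes was called by edgeR, with Pck1 at 0.66 ± 0.23 (adjusted p = 0.104). The Kupffer cell and macrophage markers summed to 213 to 409 CPM at Dose I and 198 to 372 CPM at Dose II. Of the 10 markers 5 were lower at Dose II than in the HFD group, where 2.25% of all tested genes were lower. The count was 1 with all 38 libraries (1.07% of all tested genes lower), although control C105 is in neither group. It was 6 with the length trend removed (1.99% lower).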

How the data were processed

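Per the study's methods, the authors ran kallisto against MesAur1.0 (Golden Syrian hamster). They deposited its estimated counts per gene symbol, not normalized, and its TPM values. Whether counting used strand is not given in the sources used here, and near-identical genes may share reads. Estimated counts were rounded, filtered with filterByExpr on the 4 groups, scaled by TMM and tested in edgeR 4.0.16 (R 4.3.3), with 1 coefficient per group over 37 libraries and adjustment over all 9099 genes. The study states that 1 control library was dropped after PCA but not which, and control C105 was taken as that library. Each SE is the absolute log2 fold change over the root of its F value. The length trend was removed by a lowess offset (span 0.3). Other fits used DESeq2 1.42.0, limma 3.58.1 on log2(TPM + 1) or log2(TPM + 0.1), another scaling, filter or threshold, and left-out libraries. Permutation tests (scipy 1.17.1) were two-sided and exact, with 100000 resamples where both groups held 10.

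Members, roles and lists were chosen with earlier results of these data known. By the rule for naming, levels are given for members called in any comparison and for Irs1, Irs2, Akt2, Foxo1, Prkaa1, Prkaa2, Tsc2 and Mtor, and wider lists name up to 4 called genes each. Genes resembling Insr, promoters and protein sequences were not analysed here. A gene that the lists give is not reported here.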

Additional observations from a re-analysis of the deposited data

Results flagged for a closer look

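There were 7 values that lay far from the rest of their group by Dixon's test at the 95% level, over 34 members in 4 groups, and chance alone gives about 5% of groups. Control C103 held the highest Irs1, at 35.7 CPM with the next control at 16.7 CPM, and the highest Sos1, at 119.2 CPM with the next at 86.7 CPM. It was the 1 library with 2 such values, and both genes stayed called without it. In the HFD group Shc1 reached 42.6 CPM in H118 (next 34.9 CPM) and Ptpn1 reached 54.3 CPM in H115 (next 41.99 CPM). At Dose I Pik3r1 reached 85.01 CPM in DI127 (next 62.5 CPM), Braf 4.15 CPM in DI121 (next 2.61 CPM) and Ptpn1 108.6 CPM in DI123 (next 54.98 CPM). All 7 were high values, and their cause was not tested.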

How the results depend on the processing

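For HFD against control the count of 16 members became 10 with all 38 libraries and 6 with all 38 libraries and the length trend removed; under the other 10 alternatives it stayed between 12 and 16 (24.0% to 38.8% of all tested genes called), and with 1 library left out it ran from 14 to 17, with Rheb added in 5 fits. With at least 10 counts in every library Prkci, Foxo1 and Braf could not be tested. For Dose I against HFD the count of 0 became 1 with DESeq2, and with 1 library left out it was 0 throughout. For Dose II against HFD the count of 1 became 0 with all 38 libraries, with no filter, with the length trend removed, with these library and length changes together, and at an adjusted p under 0.05. It became 2 with DESeq2 and 3 with limma at either pseudocount, and with 1 library left out it ran from 0 to 4. Between the doses every alternative gave 0. The difference in length trend between HFD and control was -0.143 with all 38 libraries. No member changed direction past the threshold, and the causes were not tested. Calls that rest on few counts, such as Braf with a median of 15, are limited by depth. No paired analysis was possible because no library number is shared between groups.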
